A study of Mus musculus with 16 samples.

Results

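The distal miRNA cluster of the imprinted Dlk1-Dio3 locus, which runs from miR-379 to miR-410, was examined in the lateral ventricle (LV) wall of WT and Dgcr8+/- mice. Its 48 mature miRNAs, from mmu-miR-379-5p to mmu-miR-410-3p, were picked by name, and each was kept if the scanner software called it detected on 8 or more of 16 arrays, without regard to genotype. The mouse prefix is left out of the names below. Of the 48 names, 47 had probes on the array and 38 were kept, out of 1881 miRNAs on the array and 495 that met the same detection rule. The kept members were 13 miRNAs of 5p arms and 25 of 3p arms, from 30 of the 38 hairpins that RefSeq lists in the cluster. Detection calls chose the members, so they are given here as a description and not as a result.

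Total RNA of the LV wall, a thin slice of tissue that holds the ciliated ependymal cells along with other cell types, came from 8 WT littermates and 8 Dgcr8+/- mice. All were 8 months old, and the methods describe them as males of a line back-crossed to C57BL/6J. Dgcr8+/- mice are heterozygous for a disrupted Dgcr8 allele in every cell of the body, so a difference could arise in any cell type of the slice or outside it. The RNA was labelled with Cy3 and hybridised to 1-colour Agilent miRNA arrays, 1 sample per array. The arrays carry no probe for the Dgcr8 mRNA, so the genotype labels could not be checked against the targeted gene.

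The Dlk1-Dio3 locus is imprinted, and its miRNAs are transcribed from the maternal chromosome as parts of long noncoding RNAs. Dgcr8 is the RNA-binding partner of the nuclease Drosha in the Microprocessor complex, which cuts each miRNA hairpin out of the long transcript before Dicer frees the 5p and 3p arms. The distal cluster is abundant in brain and is known for neuronal members such as miR-134, which restrains dendritic spine growth, and for its response to neuronal activity through Mef2. A miRNA finds its targets mainly through its seed, the bases from position 2 to 8 counted from the 5′ end.

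In GRCm38.p6 the 38 hairpins span 34.7 kb, at chr12:109709060-109743795. Of the 36 hairpins with a strand in the table, 35 lie on the plus strand, and Mir299b lies on the minus strand opposite Mir299a. The RefSeq gene model of the host transcript Mirg covers 9 of the 38 hairpins, those from Mir453 to Mir410, and starts after the other 29. RefSeq held a mature sequence for 45 of the 48 members, 35 of them kept. The sequences on which the comparisons below turn are printed 5′ to 3′ with the seed in capitals. They show the pair of members with a common seed, the miR-382 and miR-376b arms, the near copy miR-376a-3p, the member that went against the others, and the last member of the cluster.
miR-379-3p: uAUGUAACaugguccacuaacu
miR-411-3p: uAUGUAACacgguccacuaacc
miR-382-5p: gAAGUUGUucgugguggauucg
miR-382-3p: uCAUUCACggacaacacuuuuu
miR-376b-5p: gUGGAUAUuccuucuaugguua
miR-376b-3p: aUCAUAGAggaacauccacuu
miR-376a-3p: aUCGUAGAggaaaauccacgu
miR-494-3p: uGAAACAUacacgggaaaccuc
miR-410-3p: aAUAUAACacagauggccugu

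All 9 sequences lie on the plus strand of chromosome 12 of GRCm38.p6, within the hairpins of noncoding miRNA genes. MiR-379-3p lies at chr12:109709102-109709123 and miR-411-3p at chr12:109710225-109710246, near the start of the cluster. MiR-382-5p lies at chr12:109733781-109733802 and miR-382-3p at chr12:109733819-109733840. MiR-376b-5p lies at chr12:109723471-109723492, miR-376b-3p at chr12:109723508-109723528 and miR-376a-3p at chr12:109723824-109723844. MiR-494-3p lies at chr12:109715367-109715388, and miR-410-3p at chr12:109743764-109743784 closes the cluster. The 35 kept members with a sequence held 34 different seeds, and only miR-379-3p and miR-411-3p had the same seed, AUGUAAC. Near copies can share signal by cross-hybridisation. MiR-379-3p and miR-411-3p differ at 2 positions, miR-376a-3p and miR-376b-3p at 3, and miR-300-3p and miR-381-3p at 3. MiR-299a-5p holds the whole sequence of miR-299b-5p with 1 further base at the 5′ end, so the level of miR-299b-5p is uncertain in this respect.

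The summed signal of the miRNA spots was 21545358 to 29763412 in WT samples and 18528866 to 23440575 in Dgcr8+/- samples, and the arrays detected 495 to 540 and 467 to 492 miRNAs, respectively. No spot was saturated. Slide 1 held 6 WT and 2 Dgcr8+/- arrays and slide 2 held 2 WT and 6 Dgcr8+/- arrays, so each result was also computed within a slide. Dgcr8+/- replicate 2, on slide 1, had the lowest summed signal and the lowest labelling and hybridisation spike-in signals of the 16 arrays. Results that rest on it are given with and without it, but values within slide 1 always include it. Replicate 5 is the only other Dgcr8+/- array there. Of 6 miRNAs fixed as markers of ciliated ependymal cells, 5 were detected on all 16 arrays and miR-449c-5p on none. The values below are log2 of the quantile-normalized signal, and log2 fold changes are given as Dgcr8+/- minus WT. A change was called when its adjusted p from limma, over the 495 miRNAs, was under 0.05.

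Most of the distal cluster was lower in the LV wall of Dgcr8+/- mice. Of the 38 kept members, 34 were lower, 1 (miR-494-3p, which lay below 0 without normalization or with spike-in scaling) was higher, and 3 (miR-376b-3p, miR-369-3p and miR-485-3p) were not called. Of all 495 tested miRNAs, 56.2% were called, 27.9% lower and 28.3% higher. Without normalization between arrays 37 members were lower, with 59.2% of all tested miRNAs lower and 0% higher. Across the members the median log2 fold change was −0.46 (quartiles −0.59 and −0.32), or 72.5% of the WT signal, while the median of all tested miRNAs was 0.04. Among the 35 members detected on all 16 arrays, 32 were lower and 1 was higher, with a median of −0.44. The log2 fold changes of these 32 lower members ran from −0.75 to −0.25, or 59.4% to 83.9% of the WT signal. Among these 35 the SD between the log2 fold changes was 0.217, against a median standard error (SE) of 0.0724. MiR-299a-3p met the detection rule through WT arrays alone, so its lower call is no support, and without it 33 of 37 members were lower.

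In 24 of the 38 kept members every Dgcr8+/- array lay below every WT array, against 17.2% of all tested miRNAs, and in 0 members every Dgcr8+/- array lay above every WT array, against 7.07%. The median deviation of the members from the WT mean, taken within an array, was −0.06 to 0.15 in the 8 WT arrays and −0.81 to −0.31 in the 8 Dgcr8+/- arrays. These ranges did not overlap. The lowest value belonged to Dgcr8+/- replicate 2, which had the lowest signal of all 16 arrays for 24 of the 38 members, and the other 7 Dgcr8+/- arrays lay between −0.60 and −0.31. Without this array 36 members were lower and 1 was higher, with a median of −0.43. Within slide 1 the median log2 fold change was −0.55, and within slide 2 it was −0.43, with 37 members below 0 on both slides. The slide 1 value rests on Dgcr8+/- replicates 2 and 5, with median deviations of −0.81 and −0.45, and was not computed without replicate 2. Of all tested miRNAs, 44.4% had a log2 fold change below 0 over all arrays, and of the members 37 of 38.

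**Figure D1:**
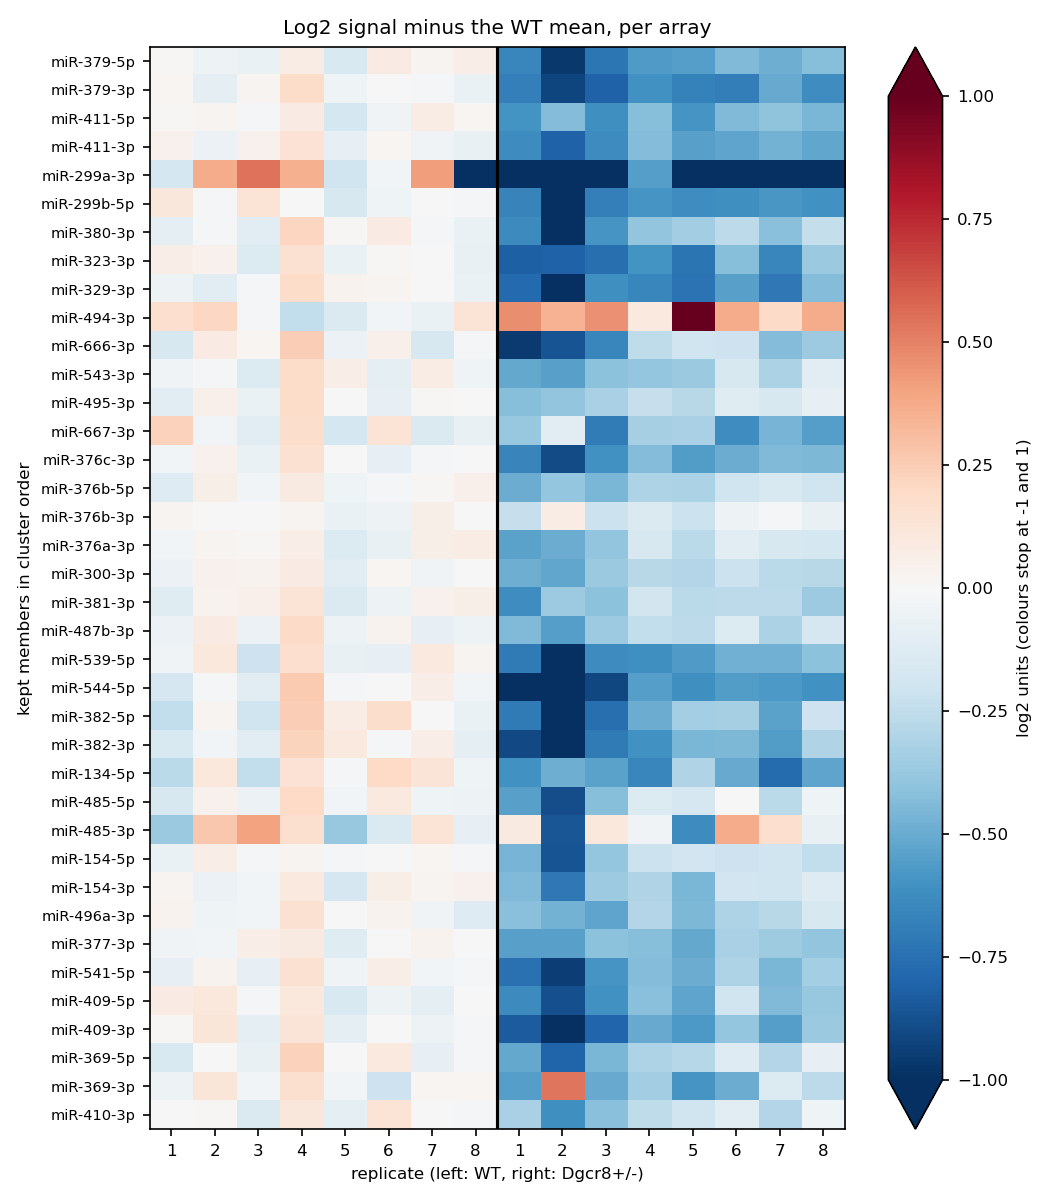
Log2 signal of each of the 38 kept members (rows, in cluster order) minus the mean of the 8 WT arrays, for 8 WT arrays (left) and 8 Dgcr8+/- arrays (right), with blue for lower and red for higher and colours stopping at −1 and 1. The Dgcr8+/- side is blue in almost every row, replicate 2 is the darkest column, and miR-494-3p is the row that is red in Dgcr8+/- samples, a direction that turns without normalization or with spike-in scaling.

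The LV wall holds several cell types, and in such bulk samples fewer cells of a type and less RNA per cell cannot be told apart. Of 10 miRNAs fixed as neuronal markers, all tested, 2 were lower and 1 was higher in Dgcr8+/- samples: miR-128-3p (log2 fold change −0.11) and miR-218-5p (−0.15) fell, and miR-138-5p rose (0.21, but −0.32 without normalization and −0.30 with spike-in scaling). These calls depend on the scaling: without normalization 9 of the 10 neuronal markers were lower and 0 higher, with a median of −0.44, and with spike-in scaling 6 were lower, with a median of −0.43. Scaling to the 75th percentile of detected probes gave 0 lower and 4 higher. Over all tested miRNAs 59.2% were lower without normalization (median −0.39) and 52.7% with spike-in scaling (median −0.38), with 0% higher in both. With that percentile 25.5% of them were lower and 42.4% higher, and with quantile normalization 27.9% and 28.3%. After quantile normalization the summed signal of the 10 neuronal markers was 15.4 to 15.6 log2 units in WT samples and 15.4 to 15.6 in Dgcr8+/- samples. The summed ependymal markers were 9.08 to 10.3 and 9.76 to 10.6 log2 units, with 0 of the 5 tested markers called and a median log2 fold change of 0.29. With the 75th percentile of detected probes 3 of the 5 were higher (median 0.35), where 42.4% of all tested miRNAs were higher. Without normalization 0 of the 5 were called, with a median of −0.19. The neuronal and ependymal sums overlapped between genotypes. Of the 3 oligodendrocyte markers 1 was higher, of the 4 vessel markers 2 were higher, and 1 marker each was lower among 2 tested for choroid plexus, 3 for red blood cells and 4 for microglia and immune cells. The rises turned without normalization, where miR-219a-2-3p (0.29) was −0.26, miR-126a-5p (0.16) was −0.35 and called lower, and miR-143-3p (0.22) was −0.25. In that setting 0 of these markers were higher, and all 4 of microglia and immune cells and all 3 of red blood cells were lower, against 59.2% of all tested miRNAs. The part of these cell types in the change of the cluster was not tested.

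**Figure D2:**
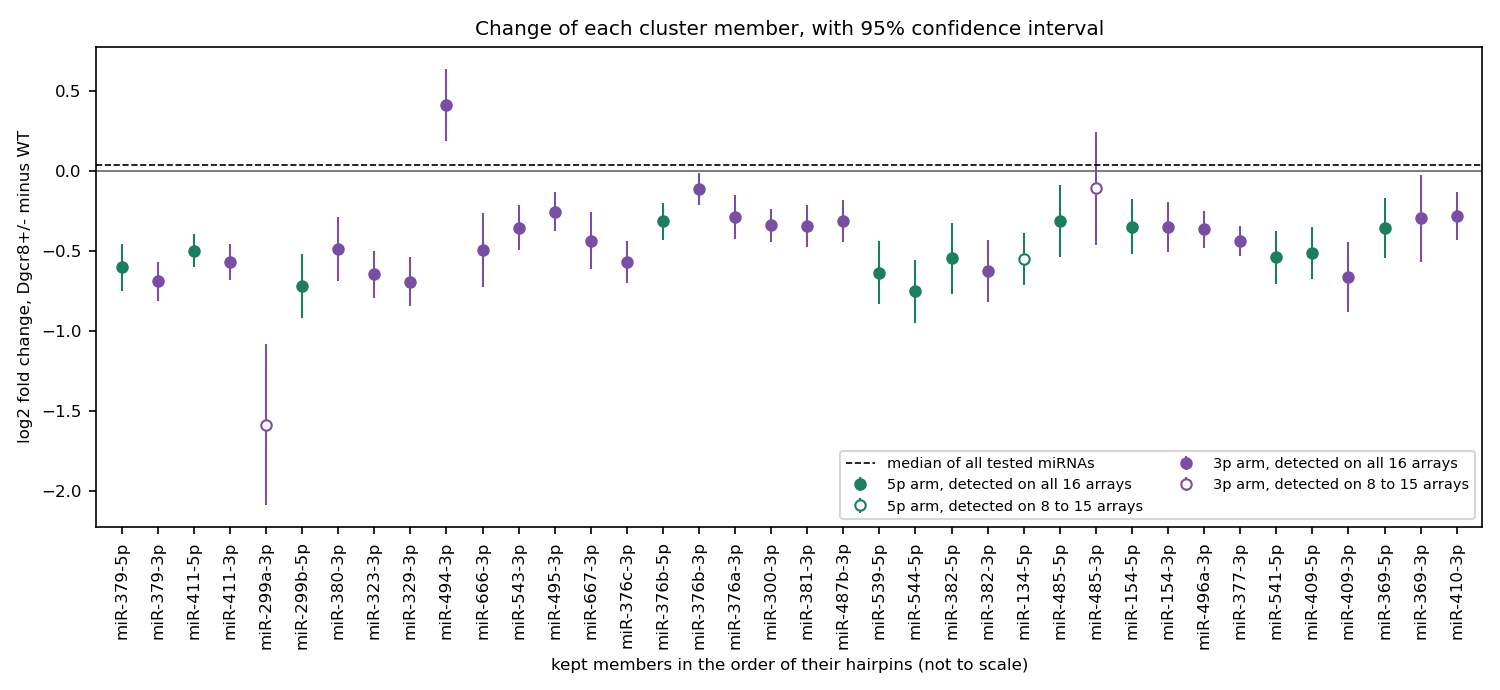
Log2 fold change (Dgcr8+/- minus WT) of the 38 kept members in the order of their hairpins, with 95% confidence intervals from limma, green for 5p arms and violet for 3p arms, and open points for members not detected on all 16 arrays. Values from miR-379 to miR-329 lie near −0.6, rise to about −0.3 around miR-376b to miR-487b, and dip again at miR-539 to miR-134 and at miR-541 and miR-409. The value of miR-299a-3p rests on arrays without detection and is no estimate of size, and miR-494-3p falls below 0 without normalization or with spike-in scaling.

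The size of the fall varied along the cluster. As a background for the counts in this paragraph, 27.9% of all tested miRNAs were lower. The members of the hairpins from Mir379 to Mir666 had a median log2 fold change of −0.60 (10 of 11 lower), those from Mir543 to Mir544 a median of −0.34 (11 of 12 lower), and those from Mir382 to Mir410 a median of −0.36 (13 of 15 lower). Spearman's rho of the log2 fold change with the order was 0.319 over the 38 members and 0.264 over the 35 detected on all arrays. Members of 1 locus, measured on the same arrays, are not independent, so these values are descriptions. Finer stretches, chosen after the values were seen, did not follow a single slope. The 8 members from miR-379 to miR-329 that were detected on all 16 arrays were lower, with a median of −0.62. MiR-299a-3p also lies in this stretch and in the first of the 3 parts above. The 6 members from miR-376b to miR-487b had a median of −0.31, and 5 of them were lower. The 5 members from miR-539 to miR-134 had a median of −0.63, and the 3 of miR-541 and miR-409 a median of −0.54, with all 8 lower. The miR-369 and miR-410 hairpins at the end had 2 of 3 members lower and a median of −0.29. By the RefSeq model of Mirg, the 10 kept members inside it had a median of −0.36 (9 lower) and the 28 before it a median of −0.49 (25 lower). These 25 also include miR-299a-3p, whose lower call is no support.

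At the start of the cluster, mmu-miR-379-3p was the member with the lowest adjusted p. It had a log2 signal of 5.97, 6.06 and 6.26 (lowest, median and highest) in WT samples and 5.15, 5.39 and 5.57 in Dgcr8+/- samples. Every Dgcr8+/- array lay below every WT array. The log2 fold change was −0.69 ± 0.06 (SE, n = 8 per genotype, adjusted p = 9.68e-08), and −0.82 and −0.59 within slides 1 and 2.

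The miRNA with the same AUGUAAC seed, mmu-miR-411-3p, had a log2 signal of 7.78, 7.86 and 8.01 in WT samples and 7.06, 7.33 and 7.43 in Dgcr8+/- samples, again with no overlap. Its log2 fold change was −0.57 ± 0.05 (SE, n = 8, adjusted p = 4.74e-07). Both miRNAs with this seed thus fell on the same arrays. As near copies they can share signal, so their falls may not be separate measurements. MiR-411-5p had a log2 signal of 8.14, 8.33 and 8.40 in WT samples and 7.71, 7.87 and 7.91 in Dgcr8+/- samples, with a log2 fold change of −0.50 ± 0.05 (SE, n = 8, adjusted p = 5.13e-07). These groups did not overlap either.

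MiR-323-3p had a log2 signal of 6.40, 6.54 and 6.69 in WT samples and 5.71, 5.84 and 6.16 in Dgcr8+/- samples, and its log2 fold change was −0.65 ± 0.07 (SE, n = 8, adjusted p = 1.3e-06). MiR-329-3p, which with miR-134 and miR-381 is known as an activity-regulated miRNA of dendrite growth, had a log2 signal of 8.16, 8.26 and 8.45 in WT samples and 7.21, 7.59 and 7.84 in Dgcr8+/- samples. Its log2 fold change was −0.69 ± 0.07 (SE, n = 8, adjusted p = 1.3e-06). In both, every Dgcr8+/- array lay below every WT array. MiR-329-3p shares its seed, ACACACC, with miR-362-3p, a miRNA of the X chromosome that is no member of the cluster and was also lower (log2 fold change −0.41, adjusted p = 0.000331).

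**Figure D3:**
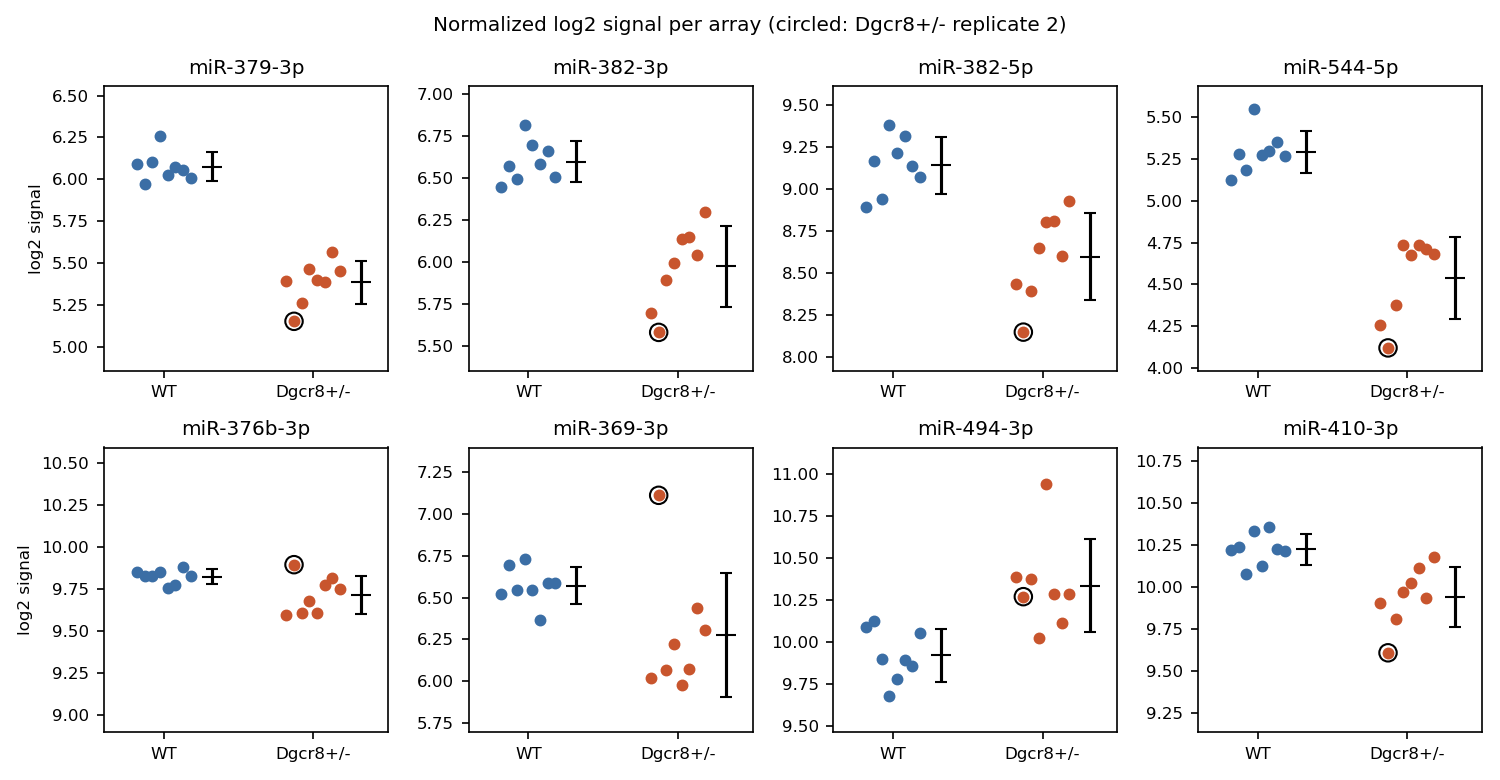
Normalized log2 signal of 8 members in the 8 WT (blue) and 8 Dgcr8+/- arrays (orange), with the mean ± SD beside each group, panels of equal height in log2 units, and Dgcr8+/- replicate 2 circled. The genotypes do not overlap for miR-379-3p, miR-382-3p and miR-544-5p and overlap for the other 5, and replicate 2 is the highest Dgcr8+/- array for miR-369-3p and miR-376b-3p but the lowest for 5 of the others.

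The member mmu-miR-494-3p went the other way, between members that fell. Its log2 signal was 9.67, 9.90 and 10.12 in WT samples and 10.02, 10.29 and 10.94 in Dgcr8+/- samples. The groups overlapped, and the highest value came from Dgcr8+/- replicate 5. The log2 fold change was 0.42 ± 0.11 (SE, n = 8, adjusted p = 0.00325), but −0.06 without normalization between arrays and −0.05 with spike-in scaling, where the median of all tested miRNAs was −0.39 and −0.38. It was 0.71 within slide 1 and 0.26 within slide 2, and 0.33 without replicate 5 (adjusted p = 0.00161). Its neighbours behaved differently on the same arrays: miR-329-3p, the kept member before it, had a log2 fold change of −0.69, and miR-666-3p, the next after it, −0.49.

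In the middle of the cluster the miR-376 hairpins, whose precursors are known substrates of A-to-I RNA editing, lay together with miR-300, miR-381 and miR-487b. MiR-376c-3p had a log2 signal of 6.71, 6.78 and 6.94 in WT samples and 5.90, 6.26 and 6.36 in Dgcr8+/- samples. Its log2 fold change was −0.57 ± 0.06 (SE, n = 8, adjusted p = 1.99e-06), with no overlap of the groups. MiR-376a-3p, with 10.97, 11.12 and 11.18 in WT samples and 10.57, 10.89 and 11.00 in Dgcr8+/- samples, had a log2 fold change of −0.29 ± 0.07 (SE, n = 8, adjusted p = 0.00142), and its groups overlapped. MiR-376b-3p had a log2 signal of 9.76, 9.83 and 9.88 in WT samples and 9.59, 9.71 and 9.90 in Dgcr8+/- samples, with a log2 fold change of −0.11 ± 0.05 (SE, n = 8, adjusted p = 0.0586). Its highest Dgcr8+/- value came from replicate 2, and leaving this array out gave −0.13 (adjusted p = 0.006). The other members of this stretch, miR-300-3p, miR-381-3p and miR-487b-3p, had log2 fold changes of −0.34, −0.34 and −0.31, each with every Dgcr8+/- array below every WT array. With outlier-marked spots kept, miR-300-3p was −0.09 (adjusted p = 0.775). Of 27 further arms of the cluster's hairpins on the array, which were not among the 48 names, 2 met the detection rule, miR-376a-5p (log2 fold change −0.39, adjusted p = 0.000859) and miR-300-5p (−0.23, adjusted p = 0.0253).

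From miR-543 to miR-667, ahead of the miR-376 hairpins, the falls were moderate. MiR-495-3p, known as a repressor of Bdnf, had the smallest fall among the members called lower, with a log2 fold change of −0.25 ± 0.06 (SE, n = 8, adjusted p = 0.00146). MiR-543-3p changed by −0.35 and miR-667-3p by −0.44, and the genotypes overlapped for all 3. MiR-667-3p was 0.94 (adjusted p = 0.002) when the software's total gene signal replaced the averaged spots, so its direction depends on how the spots are summarised.

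The hairpins from miR-539 to miR-134 formed another stretch of larger falls. Over all arrays mmu-miR-544-5p had the largest fall of the members detected on all 16. Its log2 signal was 5.12, 5.27 and 5.55 in WT samples and 4.12, 4.68 and 4.74 in Dgcr8+/- samples, with no overlap, and its log2 fold change was −0.75 ± 0.09 (SE, n = 8, adjusted p = 6.97e-06). This order depends on the setting. Within slide 1 miR-544-5p was −0.88, behind miR-299b-5p (−0.997), miR-329-3p (−0.92) and miR-409-3p (−0.91). Without normalization miR-544-5p was −1.14, behind miR-299b-5p (−1.22), miR-329-3p (−1.20), miR-379-5p (−1.15) and miR-379-3p (−1.15). MiR-539-5p had a log2 fold change of −0.63, but −0.11 (adjusted p = 0.847) with outlier-marked spots kept, where it was no longer called.

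MiR-382-3p, which the study followed as a miRNA directed at the dopamine receptor Drd1, had a log2 signal of 6.44, 6.58 and 6.82 in WT samples and 5.58, 6.02 and 6.29 in Dgcr8+/- samples. Every Dgcr8+/- array lay below every WT array. The log2 fold change was −0.63 ± 0.09 (SE, n = 8, adjusted p = 3.41e-05), and −0.57 without Dgcr8+/- replicate 2. Among the 38 kept members, the fall of miR-382-3p was close to that of miR-409-3p (−0.66). MiR-382-5p, with 8.89, 9.15 and 9.38 in WT samples and 8.15, 8.62 and 8.93 in Dgcr8+/- samples, had a log2 fold change of −0.55 ± 0.10 (SE, n = 8, adjusted p = 0.000337), and its groups overlapped.

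MiR-134-5p, the inhibitor of Limk1 in dendritic spines, was detected on all 8 WT arrays and on 4 of the 8 Dgcr8+/- arrays. Its log2 signal was 3.12, 3.44 and 3.59 in WT samples and 2.62, 2.86 and 3.09 in Dgcr8+/- samples, without overlap, and the log2 fold change was −0.55 ± 0.08 (SE, n = 8, adjusted p = 2.46e-05). The signal of this member was close to the limit of detection in Dgcr8+/- samples.

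Further along, miR-377-3p had a log2 signal of 8.60, 8.72 and 8.81 in WT samples and 8.18, 8.30 and 8.39 in Dgcr8+/- samples. Its log2 fold change of −0.44 ± 0.04 (SE, n = 8, adjusted p = 9.56e-07) was moderate, with no overlap of the groups and the smallest SE among the kept members. MiR-541-5p changed by −0.54 and miR-496a-3p by −0.36, both again without overlap.

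The last kept member, miR-410-3p, had a log2 signal of 10.08, 10.23 and 10.36 in WT samples and 9.61, 9.95 and 10.18 in Dgcr8+/- samples. The groups overlapped, with a log2 fold change of −0.28 ± 0.07 (SE, n = 8, adjusted p = 0.00293). Its seed, AUAUAAC, also occurs in miR-344d-3p (log2 fold change 0.0025, adjusted p = 0.988) and miR-344e-3p (0.16, adjusted p = 0.437), which lie outside the cluster and were not called.

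MiR-369-3p, known for binding an AU-rich element of the TNF mRNA, depended on a single array. Its log2 signal was 6.37, 6.57 and 6.73 in WT samples and 5.98, 6.15 and 7.11 in Dgcr8+/- samples. The value of 7.11 came from Dgcr8+/- replicate 2, and the other 7 Dgcr8+/- arrays lay between 5.98 and 6.44. With all arrays the log2 fold change was −0.29 ± 0.13 (SE, n = 8, adjusted p = 0.0601), and without replicate 2 it was −0.41 (adjusted p = 0.000137). It was 0.18 when spots with an outlier mark were kept.

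Both arms were kept for 8 hairpins, and in all 8 both arms had a log2 fold change below 0. Over the 80 hairpins on the array with both arms tested, limma called an unequal change of the arms in 17.5%, and 1 of the 8 hairpins of the cluster was called. This was miR-376b, where the 5p arm had a log2 fold change of −0.31 ± 0.05 and the 3p arm −0.11 ± 0.05 (SE, n = 8). The 5p arm minus the 3p arm was −2.28 to −2.06 log2 units in WT samples and −2.57 to −2.22 in Dgcr8+/- samples, with a difference between genotypes of −0.20 ± 0.05 (SE, n = 8, adjusted p = 0.0202). The ranges overlapped slightly. The difference was −0.17 (adjusted p = 0.0106) without Dgcr8+/- replicate 2. It was −0.27 within slide 1 (adjusted p = 0.171) and −0.19 within slide 2 (adjusted p = 0.212), and was called in neither. MiR-376b-3p is a near copy of miR-376a-3p and can share its signal, and the effect of this on the arm difference was not tested.

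**Figure D4:**
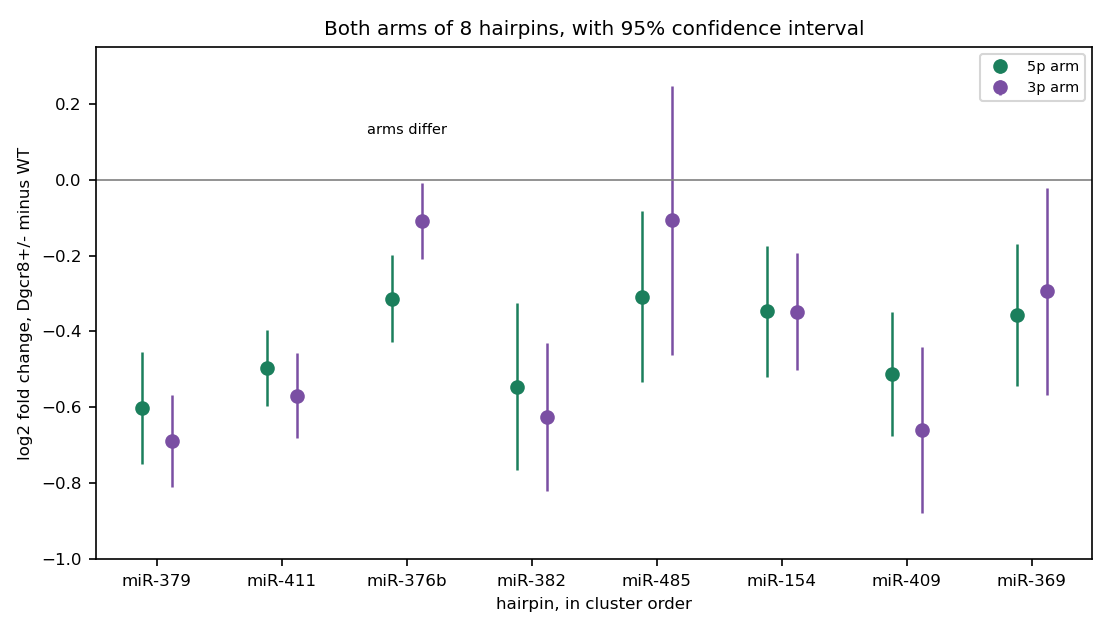
Log2 fold change (Dgcr8+/- minus WT) of the 5p arm (green) and the 3p arm (violet) of the 8 hairpins with both arms kept, with 95% confidence intervals. All 16 points lie below 0, and the hairpin where limma called a difference between the arms, miR-376b, is marked.

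For the other 7 hairpins the arm difference was not called, and the intervals show what the arrays could resolve. The 5p minus 3p difference between genotypes was 0.15 for miR-409 (95% confidence interval 0.04 to 0.26, adjusted p = 0.0607), where the 3p arm fell by 0.66 and the 5p arm by 0.51 on the log2 scale. It was called with the slide as a block (0.18, adjusted p = 0.0447) and without Dgcr8+/- replicate 2 (0.11, adjusted p = 0.0408). For miR-379, with −0.60 for the 5p arm and −0.69 for the 3p arm, it was 0.09 (−0.02 to 0.20), and for miR-382 it was 0.08 (−0.03 to 0.18). For miR-411 it was 0.07 (−0.05 to 0.19), and 0.03 without Dgcr8+/- replicate 2. For miR-154, where both arms had −0.35, it was 0.00092 (−0.13 to 0.13), and 0.02 without that array. The signs for miR-379 and miR-382 turn without normalization, with scaling to the 75th percentile or to spike-ins and with another background correction, that for miR-154 turns with that correction and with the software's total gene signal, and that for miR-411 turns within slide 2. For miR-379 and miR-382 the other background correction (−0.19, adjusted p = 0.0022, and −0.14, adjusted p = 0.0364) and the total gene signal (0.32, adjusted p = 0.000512, and 0.17, adjusted p = 0.0228) both passed the threshold, in opposite directions.

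The intervals were wide for miR-369 and miR-485. For miR-369 the arm difference was −0.06 (−0.45 to 0.32), and 0.12 without Dgcr8+/- replicate 2, whose 3p value is described above. For miR-485 it was −0.20 (−0.52 to 0.11), where miR-485-5p, known to target the synaptic vesicle protein SV2A, had a log2 fold change of −0.31 (adjusted p = 0.0209) and miR-485-3p −0.11 (adjusted p = 0.605). MiR-485-3p, with 1.52, 1.92 and 2.30 in WT samples and 1.04, 1.92 and 2.27 in Dgcr8+/- samples, was detected on 8 WT and 4 Dgcr8+/- arrays. It is the member whose probes differed in the sign of the change. With the slide as a block it was −0.39 (adjusted p = 0.0253), within slide 1 it was −0.67 (adjusted p = 0.0302), and without Dgcr8+/- replicate 2 it was −0.0011 (adjusted p = 0.999). Its value thus depended on the slide and on this array.

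Across the hairpins, the 5p members had a median log2 fold change of −0.54 with 13 of 13 lower, and the 3p members a median of −0.36 with 21 of 25 lower. These 21 include miR-299a-3p, whose lower call is no support. Over all tested miRNAs the medians were 0.01 for 5p arms, with 32.1% lower, and −0.01 for 3p arms, with 31.1% lower. The 5p and 3p members of the cluster come mostly from different hairpins, and the difference between these medians was not tested.

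The median fall was smaller among members with a bright probe. Of the 10 members with a mean WT signal of at least 9 log2 units, 8 were lower, with a median log2 fold change of −0.30, and miR-382-5p had the largest fall among them (−0.55). The 20 members between 6 and 9 had a median of −0.53 with 19 lower, and the 8 under 6 a median of −0.52 with 7 lower. MiR-299a-3p, whose lower call is no support, is among these 7 and has the lowest mean WT signal of the 38 members (1.73). Of all tested miRNAs, 21 of 88 were lower at 9 or more, 53 of 152 between 6 and 9, and 64 of 255 under 6. Their medians were −0.02, 0.0007 and 0.11, in the same order. Spearman's rho between the log2 fold change and the mean WT signal was 0.468 over the 38 members, with miR-299a-3p included, and −0.09 over the 495 tested miRNAs. The members share arrays and locus, and probe brightness differs between probes for reasons other than abundance, so this is a description. With the GC content of the mature sequence rho was −0.14 over 35 members and 0.448 over 426 tested miRNAs, and the median GC content was 45.5% and 50%, respectively.

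Several members lay at the edge of detection. MiR-299a-3p was kept through the WT arrays alone, with detection on 8 WT and 0 Dgcr8+/- arrays. Its log2 signal was 0.44, 1.90 and 2.28 in WT samples, and in Dgcr8+/- samples it was 1.19 in replicate 4 and at the floor of 0 in the other 7. With the lowest signal of detected miRNAs on each Dgcr8+/- array put in place of its own, the WT signal was 1.49-fold higher. This value is no minimum over the settings. The log2 fold change was −0.28 (adjusted p = 0.0983) with the total gene signal and −0.08 (adjusted p = 0.113) with a floor of 4. These values are descriptions, since the detection rule was met only where the signal is high. Put at the 1.49-fold difference, miR-299a-3p left the median log2 fold change of the 38 members at −0.46. The groups overlapped, since WT replicate 8 was at 0.44.

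Of the 9 members on the array that were not kept, miR-380-5p was the nearest to the limit, with detection on 7 WT and 0 Dgcr8+/- arrays. Its log2 signal was 2.07, 2.50 and 3.00 in WT samples and 0.38, 1.95 and 2.47 in Dgcr8+/- samples. MiR-329-5p was detected on 2 WT arrays. The other 7, miR-1197-3p, miR-758-3p, miR-679-5p, miR-1193-3p, miR-666-5p, miR-668-3p and miR-412-5p, were detected on 0 arrays. MiR-299a-5p had no probe under that name.

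**Figure D5:**
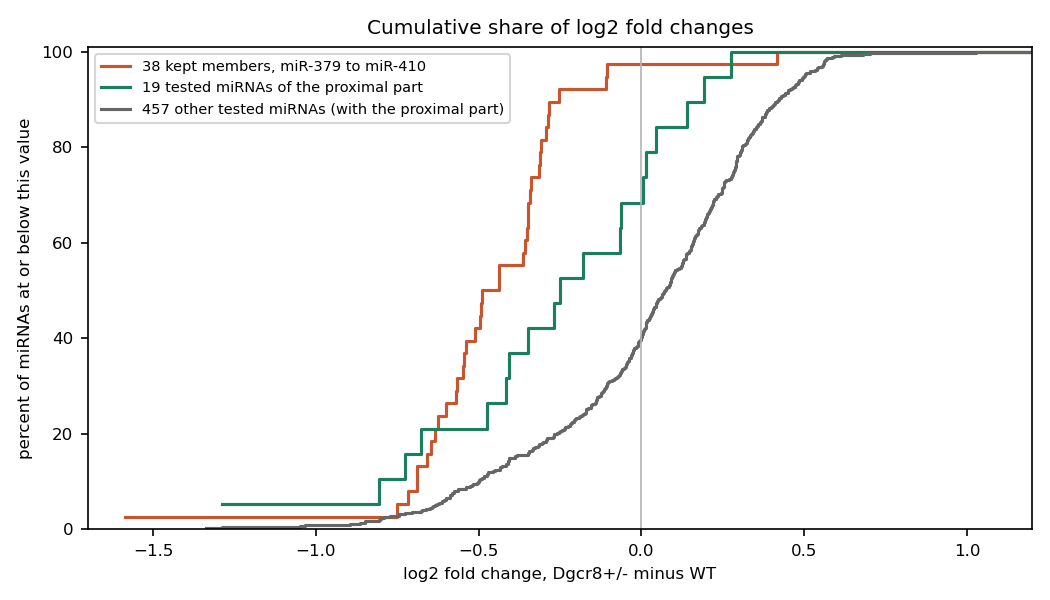
Cumulative share (percent of miRNAs) of log2 fold changes for the 38 kept members (orange), the 19 tested miRNAs of the proximal Dlk1-Dio3 part (green) and the 457 tested miRNAs that are no members (grey, the proximal part included). The curve of the members reaches 97.4% at 0, that of the proximal part 68.4%, and that of the others 40.0%, with medians of −0.46, −0.25 and 0.07.

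The proximal part of the same locus, upstream of miR-379, held 19 tested miRNAs of 37 listed names. Of these 10 were lower, 1 was higher and 8 were not called, with a median log2 fold change of −0.25. Over all tested miRNAs 27.9% were lower and 28.3% higher. Without normalization 18 of the 19 were lower, with a median of −0.69, and the distal members then had a median of −0.90. In that setting 59.2% of all tested miRNAs were lower, and their median was −0.39. Among those detected on all arrays miR-540-5p (−0.81, adjusted p = 8.94e-06) had the lowest value. MiR-665-3p lay below it (−1.29), but it was detected on only 3 of the 8 Dgcr8+/- arrays, near the floor, so the size of its fall is not resolved, and cyclic loess gave −0.79. MiR-127-3p, an antisense regulator of Rtl1, had the only called rise (0.14, adjusted p = 0.0058, but −0.36 without normalization and −0.34 with spike-in scaling). In 5 of the 19 every Dgcr8+/- array lay below every WT array, against 24 of 38 in the distal cluster and 17.2% of all tested miRNAs. The difference between the proximal and distal lists was not tested.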

How the data were processed

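Total RNA from the LV wall of 8 WT and 8 Dgcr8+/- mice was hybridised to 1-colour Agilent arrays. The deposited scanner files are those of single arrays, where Feature Extraction (10.7.3.1 in the file headers, 10.5.1.1 in the submitters' processing notes) had computed a background-corrected signal intensity for every spot and no normalization between arrays had been done. A deposited table of signal per miRNA equals the total gene signal of these files, so it carries the software's own summary on a linear scale.

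Outlier-marked spots were dropped, the remaining spots were averaged per probe, 4415 probes were quantile-normalized as the methods describe, and probes of a miRNA were averaged. Values under 1 were set to 1 and log2 was taken. Quantile normalization makes all changes relative to the other miRNAs. MiRNAs detected on at least 8 of 16 arrays (495) were tested with limma (3.58.1, R 4.3.3) and Benjamini-Hochberg adjustment. Arms were compared by limma on the 5p minus 3p log2 signal of 80 hairpins. The scripts were tested on simulated data. Sequences came from RefSeq (GRCm38.p6), whereas the array headers name mm9. The 16 samples limit the precision, and p-values measure only the spread between these samples.

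The members and lists were chosen with earlier results of these data known. Full values are given for the miR-382 arms, the 6 members with the lowest adjusted p, members higher past the threshold, hairpins with both arms kept, members not detected on every array, the first and last kept member and those beside the detection limit. Other members were named after their values were seen. Of the proximal list, the lowest and highest called values are named. The labels tie no same-numbered samples together, and their deviations correlated at −0.14 to 0.496, over 0.1 in 5 of 8 pairs and not in all, so samples were not paired. The highest correlation between 2 arrays was 0.998, and none was taken as a duplicate. Alternatives changed the scaling, background correction, summary, floor, detection filter, test, slide, replicate block and arrays included.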

Additional observations from a re-analysis of the deposited data

Results flagged for a closer look

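Of 76 groups of 8 arrays (38 kept members in 2 genotypes), 9 held a highest or lowest array far from the rest of its group, where chance alone gives about 1 in 20, or 3.8. Dgcr8+/- replicate 2 gave 4 of the 9. It was the lowest array for miR-154-5p (log2 signal 9.05, the other 7 between 9.45 and 9.72), miR-299b-5p (6.28, the others 6.96 to 7.07) and miR-539-5p (3.36, the others 3.84 to 4.14). It was the highest for miR-369-3p (7.11, the others 5.98 to 6.44). Dgcr8+/- replicate 5 was the highest array for miR-494-3p (10.94, the others 10.02 to 10.38). MiR-299a-3p stood out in both genotypes, with 1.19 in Dgcr8+/- replicate 4 and 0 in the other 7, and with 0.44 in WT replicate 8 against 1.54 to 2.28. WT replicate 4 was the highest array for miR-379-3p (6.26, the others 5.97 to 6.10), and WT replicate 5 the lowest for miR-411-5p (8.14, the others 8.28 to 8.40).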

How the results depend on the processing

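The number of members lower was 28 to 37 under the 18 alternatives that kept all arrays or took a slide alone, against 34, and 34 to 36 with 1 array left out. The share of all tested miRNAs lower was 20.8% (slide 2) to 59.2% (no normalization) in these alternatives. It was 27.9% in the main setting and 26.9% to 30.5% with 1 array left out. The number higher was 0 without normalization, with scaling to the 75th percentile of all miRNA probes, with spike-in scaling and within slide 2, and 2 with the total gene signal. The shares of all tested miRNAs higher in these settings were 0%, 23.0%, 0%, 21.8% and 23.4%, in the same order. The count of members without overlap was 15 with outlier spots kept and 24 to 28 with 1 array left out. The median log2 fold change was −0.90 without normalization, −0.89 with spike-in scaling and −0.29 with normexp on the median signal. Over all tested miRNAs these settings gave −0.39, −0.38 and 0.02, and the 75th percentile of detected probes gave 0.14. The members' median minus that of all tested miRNAs was −0.50 in the main setting, −0.51 without normalization and −0.30 with normexp. With 1 array left out, the median was −0.48 to −0.43.

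With outlier spots kept miR-369-3p was 0.18, with array weights miR-485-3p was 0.0054, and with the total gene signal miR-485-3p was 0.37 and miR-667-3p 0.94. MiR-494-3p was −0.0601 without normalization and −0.0451 with spike-in scaling. The cause was not tested. MiR-299a-3p was not called with a floor of 4 or with the total gene signal, and with outlier spots kept miR-300-3p (−0.09, adjusted p = 0.775), miR-539-5p (−0.11, adjusted p = 0.847) and miR-369-5p (−0.65, adjusted p = 0.0653) were not called. Within slide 1 miR-134-5p and miR-667-3p lost their call. Within slide 2 it was lost by 8 members (miR-154-3p, miR-369-5p, miR-376a-3p, miR-410-3p, miR-485-5p, miR-494-3p, miR-495-3p and miR-666-3p). Each slide compared 6 arrays of 1 genotype with 2 of the other, fewer than the full set. The cause of the difference between the slides was not tested. With the slide as a block miR-485-3p was called lower (−0.39, adjusted p = 0.0253).

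The count of hairpins with unequal arms was 5 with normexp, 4 with the total gene signal, 2 with the methods' t-test, with array weights and with the slide as a block, 0 within slide 1 and 0 within slide 2, and 1 to 2 with 1 array left out, against 1. The share over all 80 hairpins was 17.5% in the main setting and was not computed for the others. The arm difference of miR-379 was −0.00267 and that of miR-382 −0.0208 without normalization, with either 75th percentile and with spike-ins, and −0.19 and −0.14 with normexp, but 0.32 and 0.17 with the total gene signal, with each of these 4 values called. That of miR-154 was −0.0346 with normexp, −0.0565 with the total gene signal, −4.36e-05 with the slide as a block, −0.0797 within slide 2 and −0.0395 to 0.0244 with 1 array left out. That of miR-369 was 0.13 with array weights, 0.20 within slide 2 and −0.12 to 0.12 with 1 array left out. That of miR-411 was −0.0541 within slide 2, and that of miR-485 was 0.0043 with the slide as a block and 0.14 within slide 1.

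With the replicate number as a block 35 members were lower and 1 higher, against 28.3% and 29.7% of all tested miRNAs, and the median of the members stayed at −0.46. The member added to the lower ones was miR-369-3p (−0.29, adjusted p = 0.0329). Normexp used the median signal because the files used here hold no mean signal. Members near the detection limit, among them miR-299a-3p, miR-134-5p and miR-485-3p, have signals too low for their size of change to be resolved.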
